A study of Homo sapiens with 28 samples.

Results

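The tensins are 4 adaptor proteins that sit where integrins meet the actin cytoskeleton. Their genes, TNS1, TNS2, TNS3 and TNS4, were taken from both raw count tables by matching gene identifiers to GENCODE, which gave 4 genes of the 62703 counted. The family was picked because TNS1 stood below the wild type in clone 2.2 and above it in clone 3.6 when these data were first read. The values of TNS1 in the MDST8 clones chose the family and are therefore given as a description, without a test.

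Tensins bind the cytoplasmic tails of β integrins and are found in focal adhesions and, for TNS1 and TNS3, in the elongated fibrillar adhesions along which cells assemble fibronectin. TNS1, TNS2 and TNS3 carry a phosphatase-like region at the amino end that contacts actin or membrane, while TNS4 (also called CTEN) lacks it. All of them end in an SH2 and a PTB domain, which bind phosphotyrosine proteins, the tumour suppressor protein DLC1 and integrin tails. In epithelial cells TNS3 and TNS4 are known as a pair that can be exchanged at adhesions when cells are stimulated by growth factors.

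The study asked which genes depend on TWIST1, a basic helix-loop-helix transcription factor that drives epithelial-mesenchymal transition, in human colorectal cancer (CRC) cells. PolyA RNA was sequenced from 24 libraries in 8 groups of 3, with 18 libraries from MDST8 and 6 from LoVo. MDST8 is a metastatic CRC line of the mesenchymal subtype CMS4, and LoVo is a metastatic CRC line outside that subtype. Chromatin immunoprecipitation sequencing (ChIP-seq) with a TWIST1 antibody was done in unmodified cells of both lines, with 1 peak list each.

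The MDST8 groups were the wild type (WT) and the TWIST1 knockout clones 1.1, 2.2, 3.2, 3.5 and 3.6, made with CRISPR-Cas9 and grown from single cells, so that each of the 5 knockout groups is a single clone. WT was not described as a clone. The library names carry TG1 for clone 1.1, TG2 for clone 2.2 and TG3 for clones 3.2, 3.5 and 3.6. The sample titles call all libraries of these last groups clone TG3. The difference between clones 2.2 and 3.6 therefore cannot be told apart from one between TG2 and TG3. The LoVo groups were labelled shRNA control, with a wild-type genotype, and TWIST1 shRNA, which was delivered by lentivirus. No other treatment was named. Nothing in the descriptions says that the libraries of a group came from separate cultures, so p-values measure the spread between libraries, which may be technical. In bulk RNA, fewer cells with a transcript and less transcript per cell cannot be told apart.

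The libraries held 17252883 to 22217009 counted fragments in MDST8 and 16567606 to 20889529 in LoVo. TWIST1 itself had 845, 1034 and 797 counts in WT and 553 to 1195 counts in the clones, whose edit is in the DNA and need not lower the count. In LoVo it had 0 counts in every control library and 73, 89 and 93 in the libraries labelled TWIST1 shRNA, which goes against that label, so directions in LoVo are given between the library labels. Of 7 epithelial markers, EPCAM (0 to 5 counts), CDH1 (0 to 1), CDX2 (0 to 1), VIL1 (0 to 2) and KRT20 (0 to 8) were near 0 in MDST8 although the line is from colon. The keratins KRT18 (973 to 2395 counts) and KRT8 (196 to 401) were present, and VIM had at least 62600. The summed level of the 7 was 70.6 to 76.5 CPM (counts scaled by adjusted library totals) in WT. It was higher in every library of clone 2.2 (at most 122 CPM) and clone 3.5 (at most 135 CPM). The same held, by less, for clone 1.1 (at most 83.5 CPM) and clone 3.2 (at most 81.7 CPM). Clone 3.6, at 64.0 to 73.7 CPM, overlapped WT. The part of this sum in the tensin values was not tested. The share of mitochondrial counts was 10.9%, 6.24% and 5.47% in the LoVo TWIST1 shRNA libraries against 3.49% to 3.96% in the controls, and its part in the LoVo results was not tested.

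The 4 genes differ widely in size and in how many starts they have, which bears on both the counts and the peaks. In hg38, TNS1 (ENSG00000079308.21) spans chr2:217799588-218033982 on the minus strand, and its canonical transcript TNS1-223 starts 30987 bp inside the annotated 5′ end. TNS2 (ENSG00000111077.18) lies at chr12:53046969-53064379 on the plus strand. TNS3 (ENSG00000136205.18) spans chr7:47275154-47582558 on the minus strand. TNS4 (ENSG00000131746.13) lies at chr17:40475828-40501623 on the minus strand. Fragments were counted without regard to strand, so those of TNS2 and of its antisense partner TNS2-AS1, which share 380 bp of exon, cannot be told apart there. TNS2 also shares 64 bp of exon with SPRYD3, and 5.58% of its exonic bases are shared in all, against 1.09% for TNS1, whose antisense partner TNS1-AS1 had 0 counts in every library.

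TNS3 was the dominant tensin of MDST8, and TNS4 was not detected there. On a scale per transcript length (TPM, counts divided by gene length and scaled to a fixed sum, mean of 3 libraries), WT had 140.5 TPM of TNS3, 5.13 TPM of TNS2 and 2.41 TPM of TNS1, and TNS4 had 0 counts in all 18 MDST8 libraries. TNS3 made up 94.6% to 96.1% of the summed tensin TPM in the 6 MDST8 groups. Its WT level was above that of 93.8% of 20044 protein-coding genes, while the TNS1 level was above that of 45.5%.

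LoVo had a different make-up. In LoVo control, TNS3 was 58.6% of the tensin TPM, TNS4 35.2%, TNS2 4.07% and TNS1 2.17%. In the libraries labelled TWIST1 shRNA the order was changed, with TNS4 at 84.2%, TNS2 at 9.37%, TNS3 at 4.01% and TNS1 at 2.39%. The summed level was 148.0 ± 5.19 TPM in WT, 99.1 ± 4.91 TPM in LoVo control and 156.0 ± 13.5 TPM in LoVo TWIST1 shRNA (SD, n = 3), and among the clones it ran from 122.0 TPM in clone 2.2 to 360.8 TPM in clone 3.6.

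**Figure D1:**
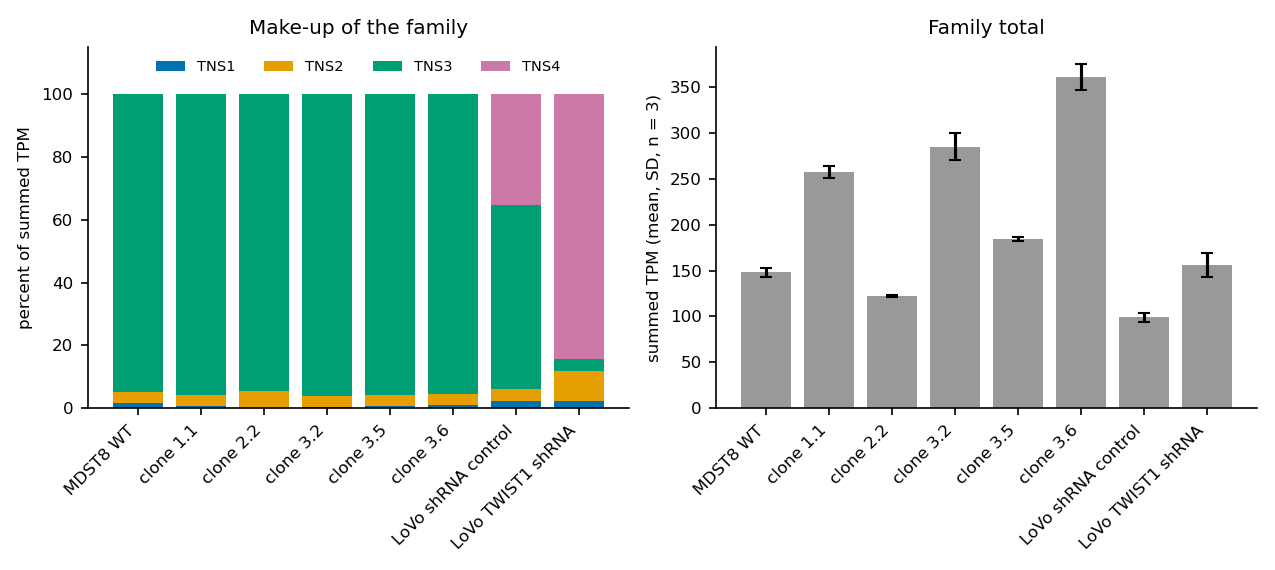
Left, percent of the summed tensin TPM taken by each gene in each group (mean of 3 libraries). Right, the summed TPM of the 4 tensins (bars, mean; error bars, SD; n = 3). TNS3 fills over 94% of every MDST8 bar, and TNS4 takes 84.2% of the LoVo TWIST1 shRNA bar.

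TNS1, the tensin of fibrillar adhesions and smooth muscle, had the largest spread between clones of the family. Its counts were 163, 217 and 163 in WT. They were 132, 111 and 113 in clone 1.1, and 74, 63 and 92 in clone 3.2. Both clones were below WT in every library. Clone 3.5 had 73, 95 and 89 counts, also all below WT. Clone 2.2 had 2, 5 and 10 counts, near the limit of detection at this depth. Clone 3.6 was the exception, with 271, 278 and 238 counts, every one of them above the highest WT library.

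Per length, the order of the 8 groups in TNS1 ran from 0.0739 TPM in clone 2.2 through 0.969 TPM in clone 3.2, 1.13 TPM in clone 3.5, 1.55 TPM in clone 1.1, 2.16 TPM in LoVo control and 2.41 TPM in WT to 3.32 TPM in clone 3.6 and 3.73 TPM in LoVo TWIST1 shRNA. Of these neighbours, clones 3.2 and 3.5 overlapped, LoVo control and WT overlapped, and clone 3.6 and LoVo TWIST1 shRNA overlapped. The gap between WT and clone 3.6 was narrow: the highest WT library had 2.87 TPM and the lowest library of clone 3.6 had 2.91 TPM.

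**Figure D2:**
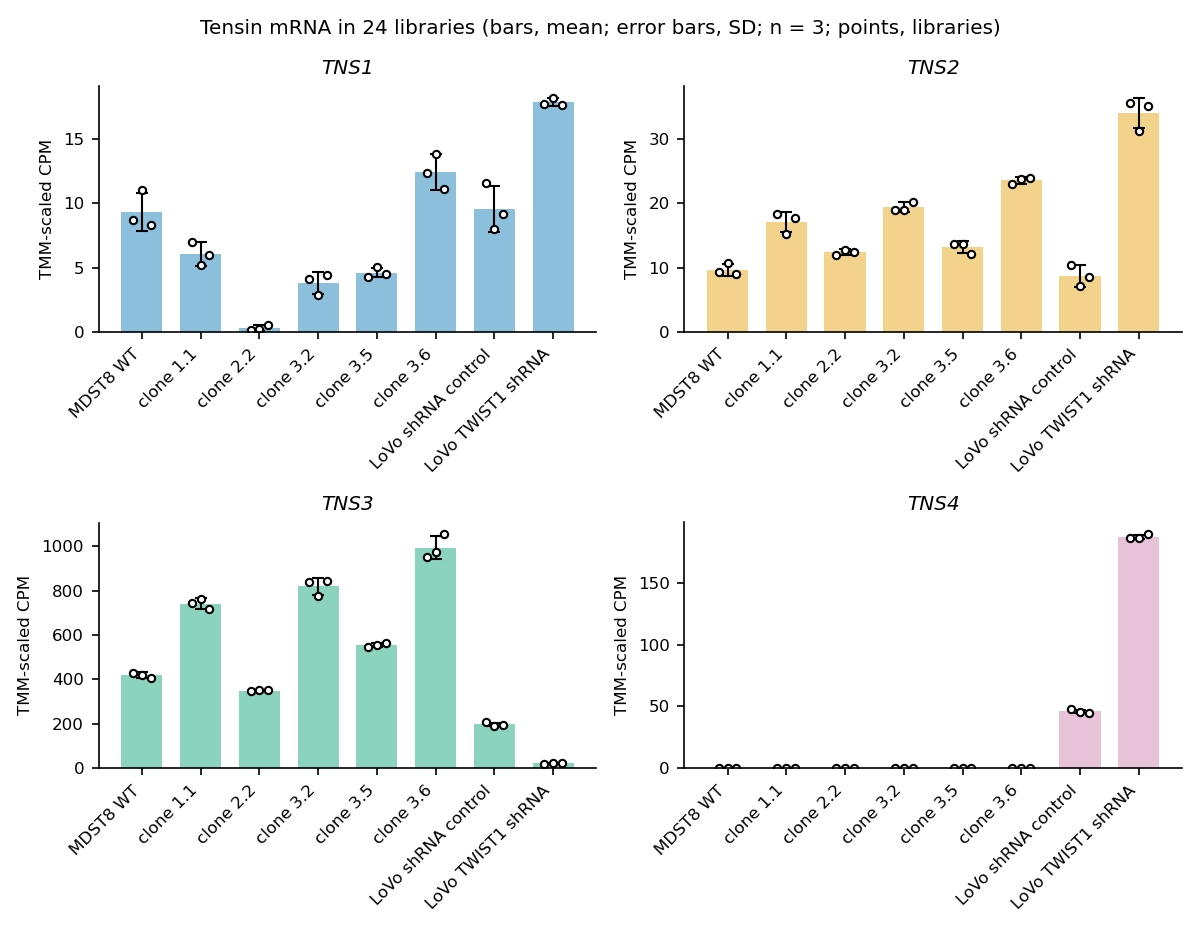
Level of each tensin in the 8 groups in CPM, counts scaled by library totals that were adjusted by TMM, the trimmed mean of M-values (bars, mean; error bars, SD; n = 3; points, libraries); each panel has its own scale from 0. TNS1 is near 0 in clone 2.2 and highest among the MDST8 groups in clone 3.6, TNS3 falls to its lowest level in LoVo TWIST1 shRNA, and TNS4 is seen in LoVo alone.

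The fitted log2 fold changes of TNS1 against WT, from edgeR's model of the 18 MDST8 libraries, were -0.63 for clone 1.1 (standard error, SE, 0.16), -1.31 for clone 3.2 (SE 0.17) and -1.02 for clone 3.5 (SE 0.16). In clone 2.2 the estimate was -4.98 (SE 0.27), a level 31.6-fold below WT that rests on the few counts given above, and leaving out its replicate A or its replicate C moved the estimate to -4.59 or -5.69. In clone 3.6 it was 0.41 (SE 0.14), or 1.33-fold above WT. These 5 estimates share the 3 WT libraries.

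In LoVo, which the choice of the family did not use, TNS1 had 191, 162 and 163 counts in the control and 340, 313 and 319 in the libraries labelled TWIST1 shRNA. The groups did not overlap, and TNS1 was higher by 0.91 on the log2 scale (SE 0.13, quasi-likelihood test of edgeR, Benjamini-Hochberg adjusted p = 5.88e-06). The study itself picked out TNS1 partly from these libraries, so this value is not independent evidence. A gene counted as called throughout when its absolute log2 fold change was over 0.58 and its adjusted p was under 0.05, and 52.7% of the 14270 genes tested in LoVo were called. Between WT and LoVo control the TNS1 difference was -0.12 on the log2 scale, given without a test since the WT values took part in the choice.

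TNS2, an adaptor that also carries a lipid-binding C1 region and acts on insulin signalling, was higher than WT in every library of every clone. Counts were 174, 212 and 176 in WT. Clones 1.1 and 3.2 had 345, 326 and 336 and 344, 424 and 422 counts. Clone 3.6 had 504, 478 and 513 counts, the highest of the MDST8 groups. The remaining clones were closer to WT, with 233, 263 and 236 counts in clone 2.2 and 233, 260 and 240 in clone 3.5.

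TNS2 rose by 0.82 in clone 1.1 (SE 0.09, adjusted p = 9.22e-10), in clone 3.2 by 1.01 (SE 0.09, adjusted p = 5.78e-12) and in clone 3.6 by 1.29 (SE 0.09, adjusted p = 2.56e-15), all log2 against WT from the same edgeR fit. In clones 2.2 and 3.5 the log2 fold changes were 0.36 (adjusted p = 0.00134) and 0.45 (adjusted p = 0.000111), below the size needed for a call. TNS2 was thus called higher in 3 of 5 clones, where 10.6% of all 13706 genes tested were called higher in at least 3. The clones also differed from each other in TNS2 (largest difference 0.92, adjusted p = 4.91e-12 for differences among the 5 clones), as 32% of the genes did.

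TNS3, which links integrins and growth factor receptors to actin and is the abundant member here, moved with TNS2 in the same 3 clones. WT had 8044, 8308 and 7953 counts, and clone 1.1 had 14017, 16255 and 13595. Clone 3.2 had 15218, 17314 and 17540 counts and clone 3.6 had 20887, 19551 and 22575. Clone 3.5 had 9325, 10462 and 11141 counts. Clone 2.2, with 6754, 7218 and 6625, was the single clone below WT.

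TNS3 rose by 0.83 in clone 1.1 (SE 0.04, adjusted p = 1.65e-19), by 0.97 in clone 3.2 (adjusted p = 2.22e-21) and by 1.25 in clone 3.6 (adjusted p = 8.24e-25). The background share of genes called in these comparisons, in either direction, was 19.5%, 17% and 27%. The values in clones 2.2 and 3.5 were -0.26 (adjusted p = 6.79e-07) and 0.41 (adjusted p = 2.76e-11), not large enough for a call, in comparisons where 14.7% and 18.5% of genes were called. Differences among the 5 clones reached 1.51 (adjusted p = 4.03e-26). Per length the order of TNS3 was LoVo TWIST1 shRNA, LoVo control, clone 2.2, WT, clone 3.5, clone 1.1, clone 3.2 and clone 3.6, and no neighbours in that order overlapped.

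Clones 2.2 and 3.6 therefore stood at the ends of the range of TNS1 and of TNS3 in MDST8. Clone 3.6 had the highest TPM of TNS1, TNS2 and TNS3 among the 6 MDST8 groups, at 3.32, 12.9 and 344.5 TPM. Clone 2.2 had the lowest TPM of TNS1 and TNS3, at 0.0739 and 115.5 TPM, but 6.47 TPM of TNS2 against 5.13 TPM in WT. Clones 1.1 and 3.2 combined low TNS1 with raised TNS2 and TNS3, so the members did not move as a block. The summed level of the fibroblast markers moved as well. It was 624 to 637 CPM in WT, 1150 to 1320 CPM in clone 1.1, 587 to 626 CPM in clone 2.2, 796 to 867 CPM in clone 3.2, 827 to 899 CPM in clone 3.5 and 316 to 343 CPM in clone 3.6, and its part in the tensin values was not tested. COL1A1 supplied most of that sum, and the markers did not move together. DCN, with 3 to 82 counts, was called higher in clones 1.1 and 3.2 but lower in clones 2.2, 3.5 and 3.6. In clone 3.6, 3 of the 4 tested markers were called lower and 1 higher. Markers of endothelial cells and leukocytes summed to at most 1.72 and 3.51 CPM in any library.

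**Figure D3:**
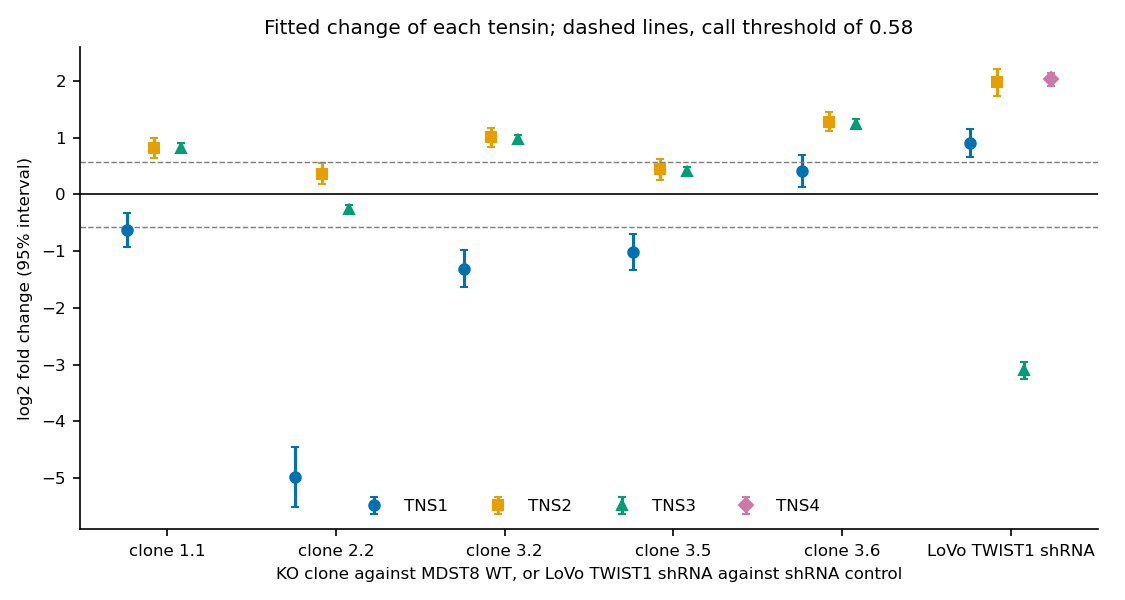
Fitted log2 fold change of each tensin in the 5 clones against WT and in LoVo TWIST1 shRNA against control (points, estimate; bars, 95% interval; dashed lines, the size of 0.58 needed for a call). TNS1 drops to -4.98 in clone 2.2 and sits at 0.41 in clone 3.6, while TNS3 reaches -3.10 in LoVo.

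In LoVo the pair TNS3 and TNS4 went opposite ways. TNS3 counts were 3419, 3865 and 3466 in the control and 384, 426 and 437 in the libraries labelled TWIST1 shRNA, without overlap. TNS3 was lower by a log2 fold change of -3.10 (SE 0.08, adjusted p = 2.28e-15). TNS4, the short tensin without the actin-binding end, had 789, 921 and 798 counts in the control and 3579, 3200 and 3421 in TWIST1 shRNA. It was higher by 2.03 (SE 0.06, adjusted p = 1.23e-14).

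TNS2 in LoVo had 173, 144 and 153 counts in the control against 684, 538 and 636, higher by 1.98 (SE 0.12, adjusted p = 1.84e-10). All 4 tensins were called in LoVo, 3 higher and 1 lower, beside a background of 26.6% called higher and 26.1% called lower, so a call by itself is common there. Epithelial markers fell in the same libraries, from 7280 to 7450 summed CPM in the control to 3820 to 4200 CPM, with 6 of 7 called lower, among them KRT20 at -4.25. Mesenchymal markers fell from 154 to 157 summed CPM to 15.6 to 18.7 CPM, with all 3 called lower and VIM at -3.22. The sum of the fibroblast markers went from 4.15 to 5.94 CPM to 53.5 to 79.9 CPM, nearly all of it COL1A1. Of the 2 tested in LoVo, COL1A1 was called higher at 4.39 and PDGFRB, with 11 to 37 counts, lower at -1.25. The part of these markers in the tensin values was not tested.

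By the library labels, the effects on TNS2 and TNS3 differed between the lines. The LoVo effect minus the mean clone effect was 1.17 for TNS2 (SE 0.13, adjusted p = 1e-09) and -3.77 for TNS3 (SE 0.07, adjusted p = 1.97e-30), tested as an interaction over all 24 libraries, where 50.7% of genes were called. The mean clone effects were 0.78 for TNS2 and 0.64 for TNS3. Since the TWIST1 counts go against the LoVo labels, the difference was also taken with the LoVo groups exchanged, which gave -2.76 for TNS2 and 2.47 for TNS3. The exchange only turns the sign of the LoVo effect, so these values follow from those above and are not a second test. The size was past the threshold either way and the direction of the difference follows the labels. The lines differ in the agent (clones against an shRNA) as well as in origin, and these cannot be told apart.

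Between the controls of the lines, TNS3 was higher in WT than in LoVo control by 0.99 (SE 0.05, adjusted p = 2.05e-19), in a comparison that called 64.5% of genes. TNS2 differed by 0.07 (95% interval -0.15 to 0.29, adjusted p = 0.562). TNS4 is best given as a bound, since a count of 0 in MDST8 WT allows up to 3 counts per library, or 0.157 RPM on average, which are counts scaled by the library total. At 44.7 RPM, LoVo control was at least 284-fold higher than WT in TNS4. That bound covers counting error alone.

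Genes whose levels followed TNS1 across the 18 MDST8 libraries were ranked by Pearson's r of log2 CPM, as a description over libraries that share their groups. The closest of 11929 protein-coding genes was ATP6V0E2, a subunit of the proton pump of acid vesicles, at r = 0.965. Further genes among the closest were ADPRHL1 (r = 0.939), the junctional adhesion molecule JAM3 (0.932) and SEL1L3 (0.932). These 4 had their lowest log2 fold change among the clones in clone 2.2, at -5.06 for SEL1L3 and -0.55 for ATP6V0E2. That follows from the ranking, since clone 2.2 sets most of the range of TNS1. All 4 were above WT in clone 3.6, from 0.09 for ADPRHL1 to 0.64 for SEL1L3. On the same measure TNS3 had r = 0.612 (Spearman's rho 0.496), TNS2 0.301 (rho 0.255) and TWIST1 0.686 (rho 0.428). The TNS1 levels of clone 2.2, which lie far from the rest, rest on 2 to 10 counts.

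The genes around TNS1 did not share its range. The log2 fold changes of its 7 tested neighbours, with 5′ ends within 500 kb, lay between -0.40 and 0.40 in clone 2.2 and between -0.68 and -0.03 in clone 3.6. Around TNS2, 2 of 19 tested genes were called in clone 2.2 and 4 higher and 2 lower in clone 3.6, beside the 14.7% and 27% of all genes called there. The keratin genes KRT18 and KRT8 rose in clone 2.2 by 0.69 and 0.72, and IGFBP6, MAP3K12, KRT8 and SP1 rose in clone 3.6 while ESPL1 and ENSG00000288663 fell. Around TNS4, which has no counts in MDST8, 2 of 14 tested genes were called in clone 2.2 and 5 in clone 3.6. IGFBP4 and NR1D1 rose in clone 2.2 (0.61 and 0.71) and in clone 3.6 (1.13 and 0.69), THRA rose in clone 3.6, and CDC6 and KRT10-AS1 fell there.

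The partners of the tensins were read from lists chosen with earlier results of these data known. Of 22 tested genes of the adhesion core (talins, vinculin, paxillin, zyxin and the like), TES, a LIM protein of adhesions, was the one called higher in at least 4 of 5 clones, beside 6.97% of all genes. Its log2 fold changes were between 0.91 and 1.51 in 4 clones and -0.11 in clone 2.2. In LoVo 5 of 22 rose, FHL2 most at 1.29, and 5 fell, TLN2 most at -2.58, beside 26.6% of all genes called higher and 26.1% called lower there, and the median of the list was -0.09 against 0.01 for all genes.

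A further list held 6 genes, of integrins and of fibronectin. ITGAV and ITGB5, which form a vitronectin receptor, were called higher in 4 clones, beside the 6.97% of all genes called higher in at least 4. ITGA5 and ITGB1, which form the fibronectin receptor of fibrillar adhesions, were called higher in 0 and 2 clones. ITGA5 lay between 0.04 and 0.32. ITGB3 and FN1 were each called higher in 3. The fourth call of ITGB5, 0.59 in clone 3.5, was just over the size needed and was lost at 0.54 without WT replicate C, at 0.56 without clone 3.5 replicate B, at 0.57 without the filter and at 0.53 with limma. The values of ITGAV and ITGB5 in clone 2.2 were 0.71 and 0.85 and in clone 3.6 were 0.72 and 1.15, so unlike TNS1 they stood above WT in both. In LoVo, where 26.6% of all genes rose, 3 of 5 tested rose, ITGA5 of the fibronectin receptor most at 2.13, and FN1, fibronectin itself, fell by 0.93.

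Among 9 tested binding partners and regulators of tensins, PEAK1, a pseudokinase scaffold of adhesions, rose in 5 of 5 clones, by 0.75 in clone 2.2 and 2.12 in clone 3.6. Of all genes, 6.97% were called higher in at least 4 clones. DLC1, a tumour suppressor bound by the tensin carboxyl end, and AXL, a receptor kinase known as a partner of TNS2, were called lower in at least 4 clones, beside 3.09% of all genes. The lowest value of DLC1 was -1.43, in clone 1.1, and that of AXL was -1.14, in clone 3.6. In LoVo 3 of 9 tested rose, AXL most at 3.49, and 1 fell, STARD13, a relative of DLC1, by 0.83. Of all genes there, 26.6% were called higher and 26.1% lower.

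Some of the smooth muscle contractile genes, a program with which TNS1 is known to be expressed, also changed direction between clones. Of 9 tested, 4 were called higher in one clone and lower in another (44.4%, against 2.31% of all genes): MYL9, TAGLN, TPM1 and CALD1. This was not particular to the contractile list, since 2 of 4 tested fibroblast markers did the same (50%), COL1A1 and DCN. The direction of the 4 contractile genes was the reverse of that of TNS1 at the ends of its range: in clone 2.2 they were at 1.42, 0.61, 1.19 and 0.79, and in clone 3.6 at -3.05, -1.61, -1.38 and -0.87. In clone 1.1, where TNS1 was -0.63, MYL9 and TAGLN were at -4.19 and -2.26. The median of the contractile list was 0.62 in clone 2.2 and -0.87 in clone 3.6, and the median of all genes in clone 2.2 was -0.01. In LoVo 5 of 10 tested rose and 2 fell, beside 26.6% and 26.1% of all genes, with TPM1 lowest at -3.06 and DES, desmin, going from 0 to 1 counts in the control to 48 to 62.

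**Figure D4:**
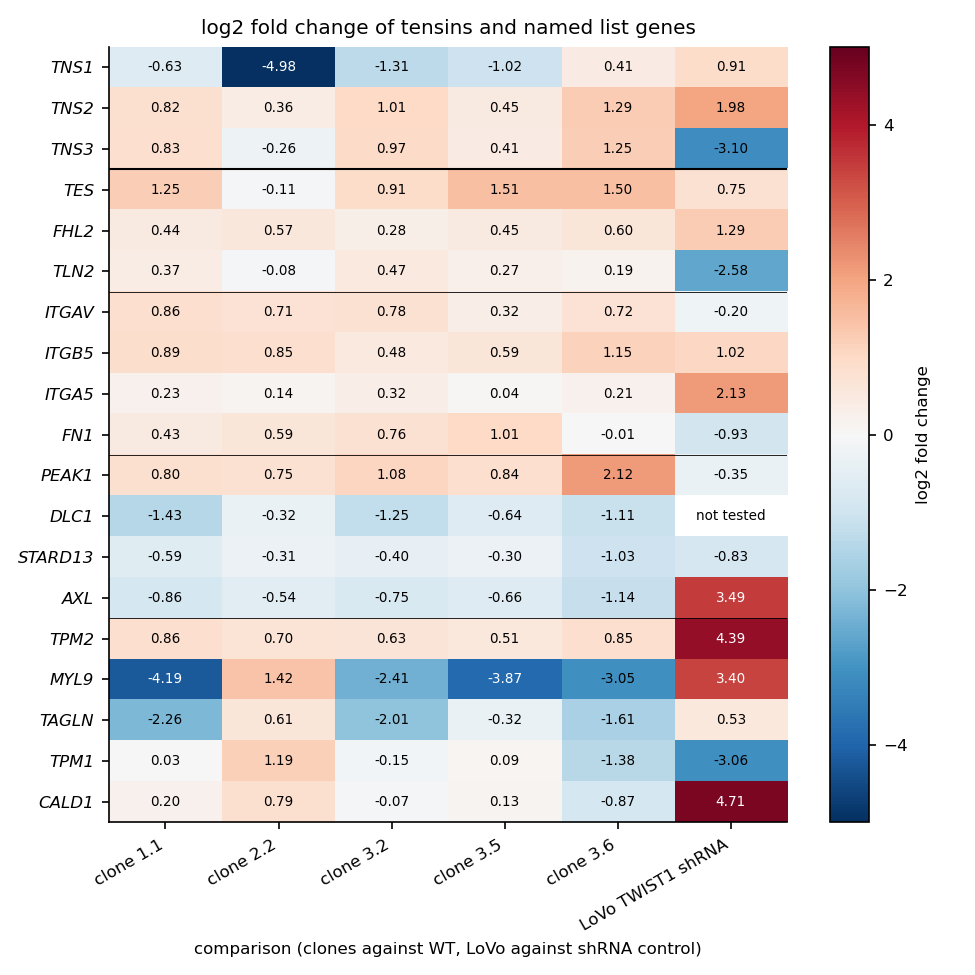
log2 fold changes of the 3 tensins tested in MDST8 and of the named list genes, in the 5 clones against WT and in LoVo TWIST1 shRNA against control (colour and printed value; lines part the lists). MYL9, TAGLN, TPM1 and CALD1 are above 0 in clone 2.2 and below 0 in clone 3.6, while TNS1 has -4.98 and 0.41.

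The TWIST1 ChIP-seq lists held many weak peaks, and the tensin genes were no exception. A list was called by MACS2 on 1 library per line at p under 0.05, so it has no replicate check. Each peak has a fold enrichment over the local background with the caller's p and its q, which is p adjusted over the genome. In MDST8, 111 listed peaks lay in or within 3000 bp of the tensins, with fold enrichments of 1.7 to 3.51, of which 24 had p of at most 0.001 (21.6%, against 17.3% of all listed MDST8 peaks). LoVo had 87, with folds of 1.7 to 3.4, of which 11 had p of at most 0.001 (12.6%, against 20.3% of all listed LoVo peaks). The lowest q of any tensin peak was 0.234 in MDST8 and 0.426 in LoVo.

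Only 13 tensin peaks overlapped one of the other line, which is 11.7% of the MDST8 and 14.9% of the LoVo peaks at the tensins, against 11.6% and 11.8% of all listed peaks. By gene, 7 TNS1 peaks were shared (17.5% of those in MDST8 and 20% in LoVo), with 5 for TNS3, 1 for TNS2 and none for TNS4. Summits lay in introns for 98 of 111 peaks in MDST8 and 80 of 87 in LoVo.

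Per 10 kb of gene, MDST8 had 1.71 peaks in TNS1 (40 peaks), 1.92 in TNS3 (59), 1.16 in TNS4 (3) and 4.60 in TNS2 (8). The median of 14896 coding genes of at least 10 kb was 1.45, with quartiles of 0.963 and 2.01. In LoVo the densities were 1.49 in TNS1, 1.37 in TNS3, 2.33 in TNS4 and 1.15 in TNS2 (2 peaks), beside a median of 1.28. In each line 1 of the TNS2 peaks had p of at most 0.001.

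At the annotated 5′ ends, within 3000 bp, MDST8 had a peak at TNS2 (2), TNS3 (2) and TNS4 (1) but not TNS1, that is at 3 of 4 genes beside 70.8% of protein-coding genes. LoVo had one at TNS1 (1), TNS3 (1) and TNS4 (3) but not TNS2, again at 3 of 4 beside 57.2%. With 4 genes, these shares were not read beyond their background. TNS1 is read differently from its canonical start, 30987 bp further in, where MDST8 had 2 peaks and LoVo 1. In TNS2 all 18 annotated transcript starts had an MDST8 peak within 3000 bp, against 4 of 18 in LoVo. These windows overlap within a gene of 17.4 kb and share its 8 MDST8 peaks, so the starts are not separate observations.

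**Figure D5:**
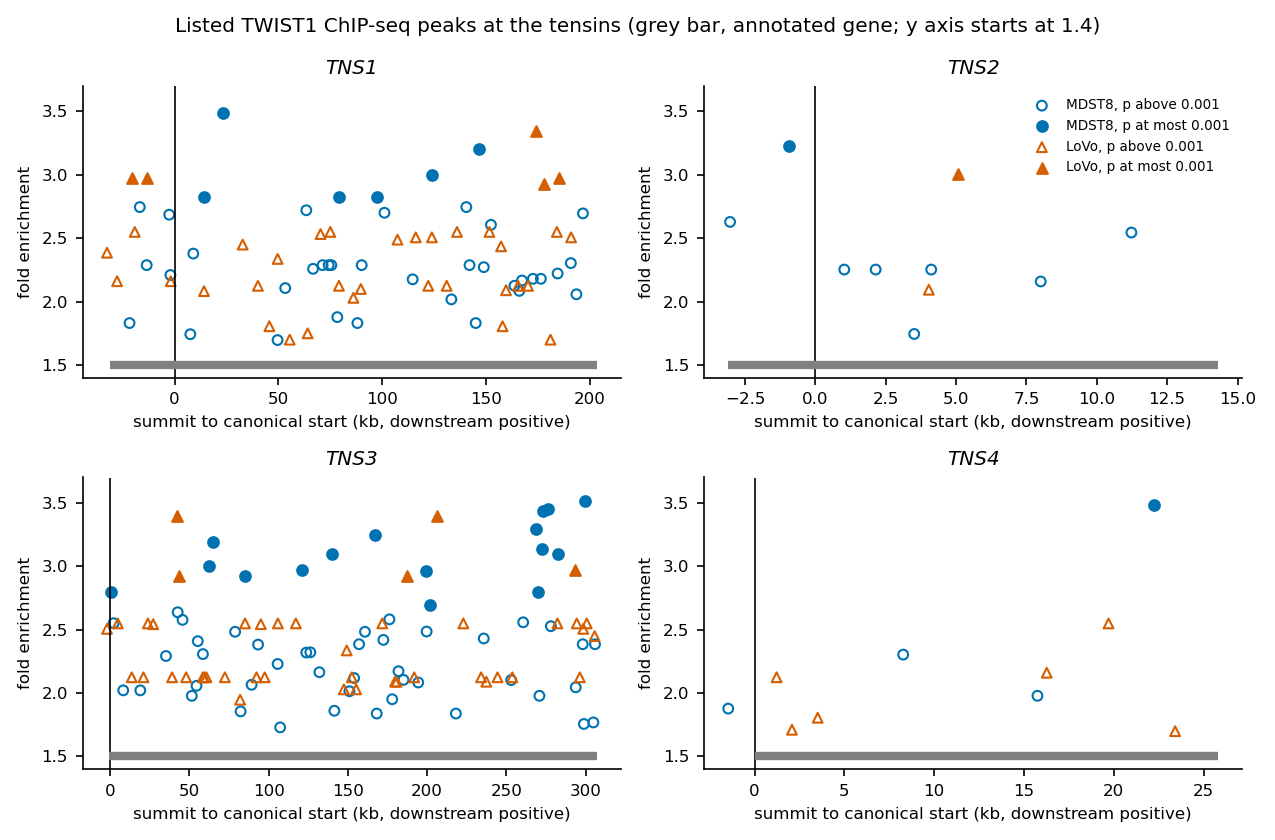
Fold enrichment of each listed TWIST1 peak against the distance of its summit from the canonical start in kb (circles, MDST8; triangles, LoVo; filled, p of at most 0.001; grey bar, the annotated gene; the vertical axis starts at 1.4). Peaks are spread along TNS1 and TNS3, and 7 of the 16 MDST8 peaks of TNS3 with p of at most 0.001 lie in its last 40 kb.

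One feature of TNS3 was picked out after its values were seen. The last 40 kb of the gene, 13% of its length, held 14 MDST8 peaks and 7 of the 16 that had p of at most 0.001, at 268.6 to 299.4 kb past the canonical start. LoVo had 7 peaks there, 1 of its 5 with p of at most 0.001. The tensin peak with the lowest p in MDST8 was among them.

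TWIST1 and its relatives bind E-boxes, and the study used the E-box CATCTG, which reads as CAGATG on the other strand. This motif lay within 50 bp of 19 of the 111 tensin summits in MDST8 (17.1%) against 7.46% of all listed MDST8 peaks, and of 8 of 87 in LoVo (9.2%) against 7.37%. By gene in MDST8 it was 9 at TNS1, 9 at TNS3, 1 at TNS4 and none at TNS2. Any E-box, CANNTG, which includes CATCTG and reads the same on both strands, was near 48.6% of tensin summits in MDST8 against 45.1% of all, and near 37.9% in LoVo against 44.9%. A motif match is a description of the letters and not of binding.

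The sequences around 5 summits are given because they are the nearest peaks upstream of the canonical start of TNS1, the start-side peaks of TNS3 and TNS4, and the tensin peak with the lowest p. Each is the hg38 plus strand, 5′ to 3′, 50 bases either side of the summit, in lower case with any CANNTG in capitals. The TNS1 windows lie in an intron, 2004 bp (MDST8, fold 2.21, MACS2 p of 0.00952) and 1859 bp (LoVo, fold 2.16, MACS2 p of 0.0098) upstream of TNS1-223, and these peaks do not overlap each other. The first TNS3 window is the intronic peak with the lowest p (fold 3.51, MACS2 p of 2.42e-05), and the other lies 406 bp past the canonical start (fold 2.79, MACS2 p of 0.000504). The TNS4 window is 1467 bp upstream of the TNS4 start (fold 1.88, MACS2 p of 0.0274), at a gene with no counts in that line.
TNS1 in MDST8, chr2:218004949-218005049: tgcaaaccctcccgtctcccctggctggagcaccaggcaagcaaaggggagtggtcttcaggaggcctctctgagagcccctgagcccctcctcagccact
TNS1 in LoVo, chr2:218004804-218004904: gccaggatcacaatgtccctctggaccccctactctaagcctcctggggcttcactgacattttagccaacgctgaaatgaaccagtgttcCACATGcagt
TNS3 in MDST8, chr7:47282694-47282794: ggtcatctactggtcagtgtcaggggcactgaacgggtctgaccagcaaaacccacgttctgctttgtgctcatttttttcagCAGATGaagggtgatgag
TNS3 near its start in MDST8, chr7:47581655-47581755: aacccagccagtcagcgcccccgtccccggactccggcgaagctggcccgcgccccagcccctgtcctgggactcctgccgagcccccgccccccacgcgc
TNS4 in MDST8, chr17:40503040-40503140: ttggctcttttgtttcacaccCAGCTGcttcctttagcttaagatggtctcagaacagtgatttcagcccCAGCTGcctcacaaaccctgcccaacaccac
The TNS3 window with the lowest p holds 1 CAGATG and the TNS4 window holds CAGCTG 2 times. The LoVo window of TNS1 holds 1 CACATG, and the other windows hold no CANNTG.

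The bases before the RefSeq starts of the tensins called in several clones are given as well, because TNS2 and TNS3 rose together in clones 1.1, 3.2 and 3.6. Each run is the 250 bases upstream of a RefSeq start (GRCh38.p14), 5′ to 3′ on the strand of the gene, with CANNTG in capitals. The TNS2 window overlaps an MDST8 peak whose summit is 65 bp past the annotated 5′ end (fold 2.63, MACS2 p of 0.00166).
TNS2, chr12:53046741-53046990, plus strand: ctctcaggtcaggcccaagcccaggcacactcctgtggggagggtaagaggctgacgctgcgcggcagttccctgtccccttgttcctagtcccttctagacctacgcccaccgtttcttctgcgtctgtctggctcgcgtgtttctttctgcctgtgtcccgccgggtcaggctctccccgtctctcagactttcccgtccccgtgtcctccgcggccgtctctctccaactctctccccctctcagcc
TNS3 outer start, chr7:47582587-47582836, minus strand: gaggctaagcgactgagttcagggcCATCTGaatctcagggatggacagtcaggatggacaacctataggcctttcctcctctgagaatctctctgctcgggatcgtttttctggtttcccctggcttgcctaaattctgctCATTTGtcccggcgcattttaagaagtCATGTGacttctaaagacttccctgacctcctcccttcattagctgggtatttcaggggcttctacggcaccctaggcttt
TNS3 canonical start, chr7:47582112-47582361, minus strand: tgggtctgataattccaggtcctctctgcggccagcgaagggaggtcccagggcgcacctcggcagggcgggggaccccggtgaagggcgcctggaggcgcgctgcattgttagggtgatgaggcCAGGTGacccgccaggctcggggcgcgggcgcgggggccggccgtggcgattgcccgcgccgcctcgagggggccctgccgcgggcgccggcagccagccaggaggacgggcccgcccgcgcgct
The outer TNS3 window holds 3 E-boxes, of which 1 is CATCTG, and the canonical one holds 1, CAGGTG. The printed TNS2 window holds none. The TNS2 windows not printed hold 0 and 2 CANNTG, and the TNS3 window not printed holds 2, both CATCTG or CAGATG. Of 35116 such windows in RefSeq, 61.8% hold a CANNTG and 12.2% hold CATCTG on either strand.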

How the data were processed

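Counts per gene were made by the authors, who aligned polyA reads from 24 libraries with HISAT2 2.1.0 to hg38 after Trim Galore 0.6.6 and counted them with featureCounts 2.0.0, without strand although the kit marks it (versions per the submitters' processing notes, which also name Bowtie2 2.4.5, SAMtools 1.6 and MACS2 2.2.7.1). The deposited count tables also hold gene length, used for TPM. The deposited peak lists give, per peak, a fold enrichment (a ratio), a −log10 p-value, a −log10 q-value, a score and the summit distance, the score not being used here. The input libraries were not analysed here. The library totals above set the precision, which for 0 counts is a floor of 3 counts.

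Genes with a geometric mean of at least 1 RPM (offset 1) in a line were tested, 13706 in MDST8 and 14270 in LoVo, with edgeR 4.0.16 (R 4.3.3) by TMM and the quasi-likelihood test on all libraries of the line, or on all 24 for comparisons across lines (14185 genes), with Benjamini-Hochberg adjustment over all genes tested. A call needed an absolute log2 fold change over 0.58 and an adjusted p under 0.05. DESeq2 1.42.0, limma 3.58.1 on log2(count + 1), other scalings and filters, left-out libraries and a replicate block were tried as alternatives. The edgeR fit was tested on simulated counts, and the peak overlaps were checked against a direct comparison on the LoVo peak list. The members and the gene lists were chosen with earlier results of these data known. Named genes were the 4 members, up to 2 highest and 2 lowest of each list among those called the same way in at least 4 clones, the highest and lowest called in LoVo, the 5 with the highest r with TNS1 (pseudocount 0.5 CPM), of which 1 is not reported here, neighbours called in clone 2.2 or 3.6 or sharing exons, and TWIST1. MYL9, TAGLN, TPM1 and CALD1 were named for their count, after their values were seen, as were the markers. Peaks were assigned within 3000 bp of the annotated 5′ end with GENCODE on hg38. Promoter windows came from RefSeq, where 11 entries matched TNS1, TNS2 and TNS3. Replicate letters were checked for pairing in MDST8: of 45 same-letter pairs, 3 had correlated deviations over 0.1, so they do not pair the libraries. No replicates agreed within sampling noise (lowest chi-square per degree of freedom 2.13).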

Additional observations from a re-analysis of the deposited data

Results flagged for a closer look

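TNS1 was picked out because every library of clone 2.2 lay below WT (log2 fold change -4.98) and every library of clone 3.6 above it (0.41). The difference between the clones was not tested, since it chose the gene.

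The clones differed from each other by edgeR's test among clones in TNS2 (largest difference 0.92, adjusted p = 4.91e-12) and TNS3 (1.51, adjusted p = 4.03e-26). In that test 32% of all genes were called. Of the list genes named above, the same held for TES (1.62), PEAK1 (1.37), DLC1 (1.11), FN1 (1.01), STARD13 (0.73), ITGB5 (0.67) and AXL (0.6). MYL9 (5.6), TAGLN (2.87), TPM1 (2.57) and CALD1 (1.65) had been singled out as called higher in one clone and lower in another. Their differences among the clones follow from that choice and are given as a description.

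By the library labels, which the TWIST1 counts in LoVo go against, the effect in LoVo differed from the mean effect of the clones by the interaction test in TNS2 (1.17, adjusted p = 1e-09) and TNS3 (-3.77, adjusted p = 1.97e-30). In the LoVo effect minus the mean clone effect, MYL9 stood at 5.79, CALD1 at 4.65, AXL at 4.25, TPM2 at 3.66, ITGA5 at 1.92, TAGLN at 1.63 and FHL2 at 0.79. On the other side were TPM1 at -3.04, TLN2 at -2.85, DLC1 at -1.69, FN1 at -1.51, PEAK1 at -1.5 and ITGAV at -0.91. DLC1 was too low in LoVo to be tested within that line, so its value rests on few LoVo counts. It is less certain than the others (adjusted p = 0.00184 by the interaction test, SE 0.44 with the LoVo groups exchanged). With the LoVo groups exchanged, the difference turned its sign in 10 of these 13 list genes and kept it in ITGAV, PEAK1 and TAGLN, and 11 of the 13 were past the threshold. TPM2, a tropomyosin, was the one contractile gene called higher in 4 clones, and its call in clone 3.2 (0.63) was lost at 0.58 without WT replicate A and at 0.57 without clone 3.2 replicate B. MYL9 was the one called lower in at least 4.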

How the results depend on the processing

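The tensin log2 fold changes were refitted under 376 alternatives, of which 370 kept their direction and side of the threshold or stayed within their spread. Without one library, TNS1 in clone 2.2 ranged from -5.69 to -4.59. The small TNS1 difference between WT and LoVo control ranged from -0.26 to 0.018 without one library, turning positive without LoVo control replicate A, and was 0.064 with limma on log2(count + 1). The TNS2 difference there ranged from -0.073 to 0.20, turning negative without WT replicate B or LoVo control replicate B. TNS1 in clone 3.6 stayed positive, at 0.34 to 0.56 without one library. With the LoVo groups exchanged, an alternative chosen after seeing the data, the LoVo effect minus the mean clone effect turned to -2.76 for TNS2 and 2.47 for TNS3. Calls of the named list genes were kept in 762 of 776 alternatives and lost in 14. Genes called between WT and LoVo control went from 9152 to 13894 without the filter on low counts, and the other counts of called genes stayed within 1.5 times.

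Without normalization, the share of calls that were higher went from 64.1% to 74.3% in clone 3.2 and from 56.7% to 71% in clone 3.6, and the median of all genes moved to 0.13 in clone 3.6 and to 0.26 between WT and LoVo control. The replicate block on the MDST8 letters, which do not pair the libraries (3 of 18 libraries were closest to their own letter), changed no tensin call and gave 2006 genes called in clone 2.2 instead of 2014. The LoVo groups share no replicate names, so no block was fitted there.

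Peak counts depend on the threshold. Tensins with a peak at the 5′ end in MDST8 went from 3 to 0 at q of at most 0.05. In LoVo they went from 3 to 1 within 1000 bp, to 0 at p of at most 0.001 and to 0 at q of at most 0.05. At p of at most 0.001, 24 of 110 MDST8 peaks and 11 of 85 LoVo peaks within the 4 genes remained. Depth limits TNS1 in clone 2.2, with 2 to 10 counts, and TNS4 in MDST8, with 0.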
